A study of Mus musculus with 6 samples.

Results

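The genes examined here are the interleukin-6 (IL-6) family cytokines Il6, Lif, Osm and Il11, their receptor chains Il6ra, Il6st, Lifr, Osmr and Il11ra1, and Socs3, an inhibitor that the pathway induces against itself. They were chosen by name, as probe sets whose platform annotation gives 1 gene symbol only. Of the 10 genes, 9 had such a probe set, out of 22180 genes tested in all. Il11ra1 was not analysed here. Socs3 had 2 probe sets, of which the one with the higher mean was used, and the other 8 genes had 1 each.

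The 6 arrays were made from kidneys of untreated mice aged 4 weeks, 3 labelled Cre-negative and 3 labelled Cre-positive. The study asked what reduced Pals1, a scaffold of the Crumbs polarity complex encoded by Mpp5, does in nephrons. The labels give the same breeding for both groups, a Pals1/Mpp5 conditional knockout line in a C56Bl/6 background and Six2-Cre mice from JAX of mixed background. Six2 marks the progenitors of nephron epithelium, from which collecting ducts, vessels and immune cells do not come. The labels state neither the number of conditional alleles in each group nor whether each array came from a separate mouse, so the tests measure the spread among these 6 arrays, which may be technical.

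The IL-6 family cytokines considered first here signal through the receptor chain gp130, encoded by Il6st, whereas the related IL-31 uses IL31RA with OSMR. IL-6 and IL-11 first bind a private receptor, and LIF and oncostatin M pair gp130 with the LIF receptor or the oncostatin M receptor. The chains activate JAK kinases and the transcription factor STAT3, which drives acute-phase genes and SOCS3, and SOCS3 then blocks gp130. In injured kidney, tubule cells and infiltrating cells can both make these ligands and respond to them.

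In Cre-negative arrays Mpp5 ranged from 8.66 to 8.78 and in Cre-positive arrays from 8.04 to 8.20. It was lower in the latter, with a log2 difference of -0.61 ± 0.09 (SE, n = 3 per group; limma adjusted p = 0.00232). All values are log2 RMA values, with array medians of 5.55 to 5.64, and the number of arrays limits their precision. Xist, expressed from the inactive X of females, was high in 2 of 3 Cre-negative and 0 of 3 Cre-positive arrays, so sex was not balanced. Cre-negative replicate 3 was the single Cre-negative array without it. Adrenal transcripts were high in Cre-negative replicate 2 (Cyp11b1 at 11.10), and those of skeletal muscle in Cre-positive replicate 2 (Myh4 at 7.72). The 7 kidney-defining markers with a probe set were present in every array, among them Umod at 12.48 to 12.88 and Nphs1 at 6.59 to 8.29.

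Of the 9 genes, 5 were higher in Cre-positive kidneys and 0 were lower at a limma adjusted p under 0.05. The 5 were Osmr, Socs3, Il6ra, Lif and Il6st. Lifr, the gene with a negative difference, had an unadjusted p under 0.05 only. Over all genes tested, 21.8% were called, 10.7% as higher (2372 genes) and 11.1% as lower (2472). With each array centred on its median that split was 1861 higher and 3134 lower. Of the 9 genes, 7 had groups without overlap, as did 38.5% of all genes. With sex as a second factor 9.15% of all genes were called, and 3 of the 5 calls (Osmr, Socs3 and Il6ra) held. The median difference of the 9 genes was 0.39, against -0.01 over all genes.

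**Figure D1:**
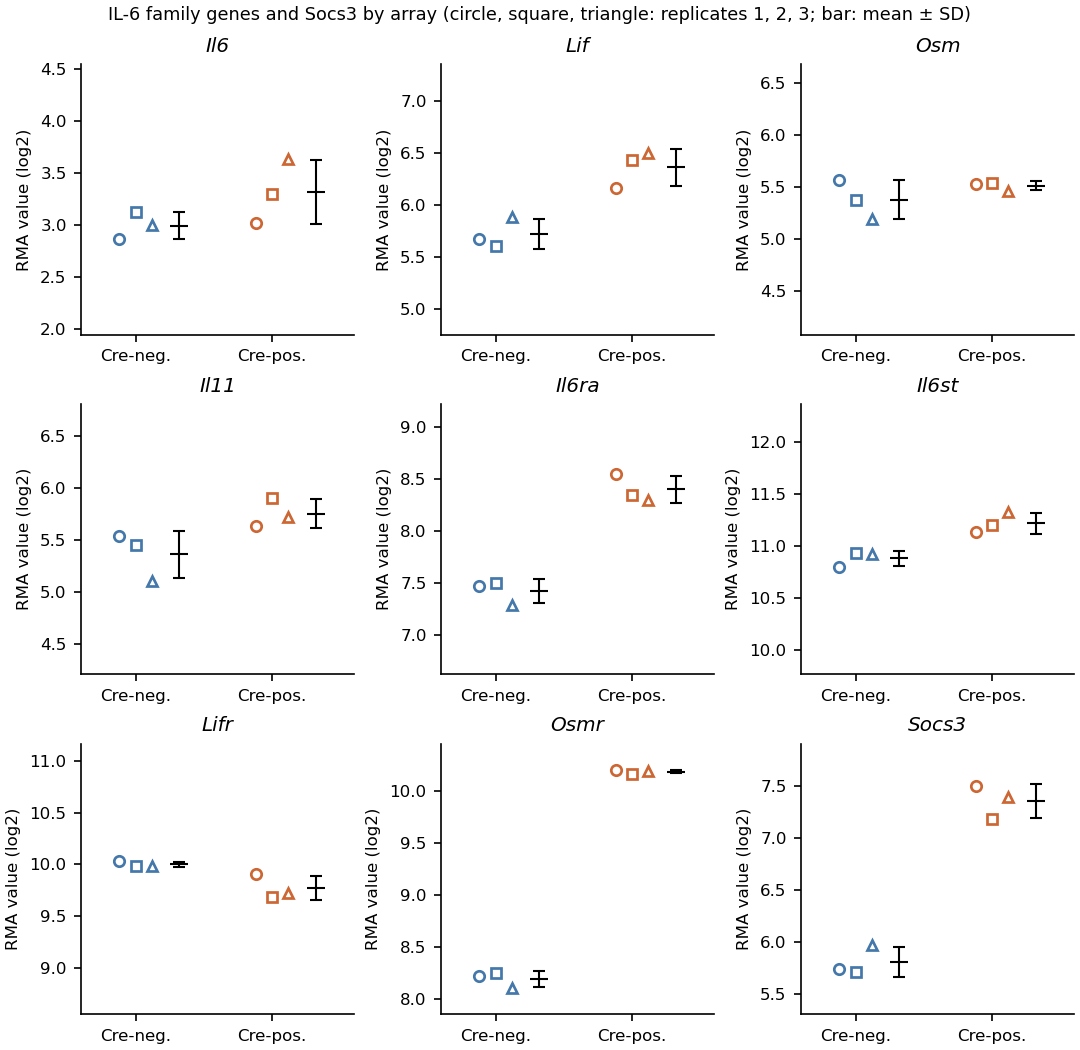
RMA values (log2, vertical axes of equal length) of the 9 genes in 3 Cre-negative and 3 Cre-positive arrays, with bars for the mean and SD of each group. The 3 Cre-positive values of Osmr lie between 10.17 and 10.20, far above the Cre-negative values of 8.11 to 8.25, while the groups of Il6 and Osm overlap.

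Among the ligands, Lif rose and the others did not pass the test. Lif encodes leukemia inhibitory factor, which acts through LIFR and gp130. Cre-negative replicates 1, 2 and 3 had values of 5.67, 5.61 and 5.89, and Cre-positive replicates 1, 2 and 3 had 6.16, 6.43 and 6.50. Every Cre-positive array lay above every Cre-negative array, by 0.27 at the closest. The difference was 0.64 ± 0.12 (95% interval 0.36 to 0.92), or 1.56-fold (limma adjusted p = 0.00822). Against the single Cre-negative array without Xist, which is also the estimate with sex as a second factor, the difference was 0.47 and the call was lost (limma adjusted p = 0.133). It was also lost without the 2 arrays that carried adrenal or muscle transcripts, at 0.55 (limma adjusted p = 0.109).

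Il11, a cytokine of epithelium and stroma linked to fibrosis, stood at 5.54, 5.45 and 5.11 in Cre-negative and at 5.64, 5.91 and 5.72 in Cre-positive replicates 1, 2 and 3. The groups did not overlap, but the gap was 0.10 and the lowest value was that of Cre-negative replicate 3. The difference of 0.39 ± 0.13 (95% interval 0.08 to 0.70) did not pass (limma adjusted p = 0.0740). With sex as a second factor it was 0.65 and passed (limma adjusted p = 0.0424), an estimate that rests on Cre-negative replicate 3. Of the 16 alternative settings that tested Il11, this was the 1 in which it passed.

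Osm encodes oncostatin M, a product of activated myeloid and T cells and the ligand of OSMR. It stood at 5.57, 5.37 and 5.19 in Cre-negative and at 5.53, 5.54 and 5.46 in Cre-positive replicates 1, 2 and 3. Cre-negative replicate 1 had the highest value of all, so the groups overlapped. The difference was 0.13 ± 0.11 (95% interval -0.13 to 0.39; limma adjusted p = 0.482).

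Il6 encodes the founding cytokine of the family. Its values were 2.86, 3.12 and 3.00 in Cre-negative and 3.02, 3.30 and 3.63 in Cre-positive replicates 1, 2 and 3. Only Cre-positive replicates 2 and 3 exceeded all Cre-negative arrays. The difference was 0.32 ± 0.16 (95% interval -0.04 to 0.68; limma adjusted p = 0.197). Values of different probe sets do not share 1 scale, but all 6 Il6 values lay below the 3.66 to 4.54 of 3 Y-linked genes in the arrays with Xist, which lack a Y chromosome. RMA compresses differences of such dim probe sets, so a change in Il6 may have been missed at this signal. Whether it could be detected was not tested.

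Among the receptors, Osmr rose most. Osmr encodes the chain that pairs with gp130 to bind oncostatin M. It stood at 8.22, 8.25 and 8.11 in Cre-negative and at 10.20, 10.17 and 10.19 in Cre-positive replicates 1, 2 and 3. The 3 Cre-positive arrays were within 0.02 of each other, and the gap to the Cre-negative arrays was 1.93. The difference was 2.00 ± 0.08 (95% interval 1.81 to 2.18), a 3.99-fold rise (limma adjusted p = 2.56e-05). By p it ranked 9 among the 22180 genes, and by the size of the rise 62. It passed under all 17 alternative settings, with differences of 1.93 to 2.08 and limma adjusted p of 3.55e-06 to 0.00355.

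Il6ra encodes the private IL-6 receptor, which also exists in a shed form that lets IL-6 act on cells without it. It stood at 7.47, 7.50 and 7.29 in Cre-negative and at 8.55, 8.35 and 8.30 in Cre-positive replicates 1, 2 and 3. The groups were separated by 0.80. The difference was 0.98 ± 0.10 (95% interval 0.74 to 1.22), or 1.98-fold (limma adjusted p = 0.000679), and the call held under all 17 settings (differences of 0.91 to 1.11).

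Il6st stood at 10.80, 10.93 and 10.92 in Cre-negative and at 11.13, 11.20 and 11.33 in Cre-positive replicates 1, 2 and 3. The groups did not overlap, with a gap of 0.20. The difference was 0.33 ± 0.09 (95% interval 0.12 to 0.54), or 1.26-fold (limma adjusted p = 0.0361). This call depended on single arrays: without Cre-negative replicate 1, 2 or 3 or Cre-positive replicate 2 or 3 it was lost, with limma adjusted p of 0.0721 to 0.129 and differences of 0.28 to 0.35. It was also lost with sex as a second factor (0.29, limma adjusted p = 0.263), with each array centred on its median (0.27, limma adjusted p = 0.0838) and without the 2 arrays with adrenal or muscle transcripts (0.37, limma adjusted p = 0.169).

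Lifr, the chain that binds LIF, had the opposite sign. It stood at 10.03, 9.99 and 9.99 in Cre-negative and at 9.91, 9.69 and 9.73 in Cre-positive replicates 1, 2 and 3. All Cre-positive values lay below the Cre-negative ones, by 0.08 at the closest. The difference of -0.23 ± 0.09 (95% interval -0.43 to -0.02) did not pass (limma adjusted p = 0.118), and it kept its sign under all 17 settings.

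The measured differences of the receptor chains were unlike in size, though their probe sets do not share 1 scale. On the log2 scale, the difference of Osmr exceeded that of Lifr by 2.22 ± 0.07 (SE, n = 3 per group), that of Il6st by 1.66 ± 0.09, and that of Il6ra exceeded that of Il6st by 0.65 ± 0.16. In each of these 3 comparisons the per-array ratios of the groups did not overlap, and an exact permutation test (two-sided) had p = 0.10, the lowest value possible with 3 arrays a group (0.10 after adjustment over the 3). Osmr and Lifr are neighbours in the mouse genome, with 0 protein-coding genes between them in RefSeq. So are Osm and Lif.

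Socs3 was the second most raised member. It stood at 5.74, 5.71 and 5.97 in Cre-negative and at 7.50, 7.18 and 7.39 in Cre-positive replicates 1, 2 and 3. The gap between the groups was 1.21, and Cre-positive replicate 1 was the highest array. The difference was 1.55 ± 0.12 (95% interval 1.28 to 1.82), or 2.93-fold (limma adjusted p = 0.000165), and the call held under all 17 settings. A second, dimmer Socs3 probe set ranged from 3.63 to 3.79 in the Cre-negative group and from 4.09 to 4.39 in the Cre-positive group, 0.49 apart on average. Taking the mean of both probe sets gave a Socs3 difference of 1.02 (limma adjusted p = 0.000584, with a range of 7.44e-05 to 0.0152 over the settings).

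**Figure D2:**
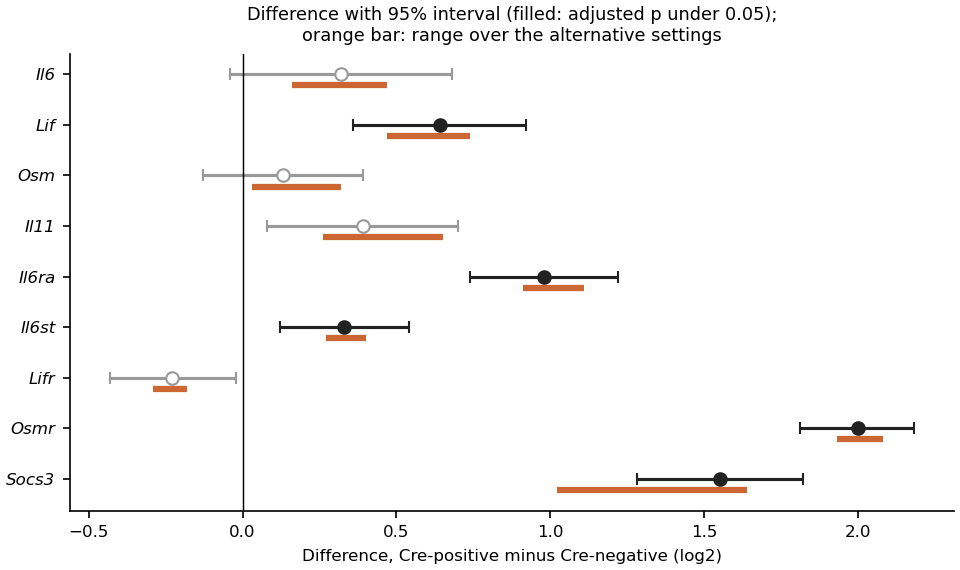
Log2 differences (Cre-positive minus Cre-negative) of the 9 genes with 95% intervals from limma, filled where the adjusted p was under 0.05, and orange bars for the range over the alternative settings. Osmr at 2.00, Socs3 at 1.55 and Il6ra at 0.98 lie to the right of Lif, Il11, Il6st, Il6 and Osm, and Lifr lies below 0 under every setting.

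As STAT3 is the factor common to these receptors, the RefSeq windows (GRCm38.p6) before the start sites were searched for 3 motifs on both strands. These were the STAT motif TTCNNNGAA and the AP-1 motif TGANTCA, which each read the same on both strands, and the C/EBP motif TTGCNNAA, whose matches on opposite strands can overlap. Of the 10 genes, 9 had windows, 12 in all, each cut to the 250 bases upstream. A STAT match was in 1 of the 12 windows (7.02% of all 32851 windows), an AP-1 match in 3 (6.75%) and a C/EBP match in 1 (9.56%). The stretches below show each match in capitals with up to 10 bases either side, because they are the only matches in the members' windows. Each is printed on the strand of its gene, and the Il6 C/EBP match fits that motif on the opposite strand.
Socs3, STAT, chr11:117969502-117969530, minus strand: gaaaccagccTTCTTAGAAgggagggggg
Lif, AP-1, chr11:4257330-4257356, plus strand: cagtcagctgTGACTCAggccatagtg
Il11, AP-1, chr7:4778223-4778249, minus strand: ggagggagggTGAGTCAggatgtgtca
Il6, AP-1, chr5:30012864-30012881, plus strand: cTGAGTCActtttaaaga
Il6, C/EBP, chr5:30012976-30013003, plus strand: cgacgtcacaTTGTGCAAtcttaataag

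The Socs3 match began 154 bases before the start site and the Lif match 228 bases before it. The windows of Socs3, Osmr and Lifr and the second windows of Il11 and Il11ra1 lie within the RefSeq gene record, which starts further upstream. The windows of Osmr, Il6ra, Il6st and Lifr held none of the 3 motifs. A match is a description of letters, and no match says only that these letters are not in this window. Osm had no entry.

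Among other cytokines and receptors of the family the share called was near the background. Of 9 measured genes 2 rose and 0 fell (22.2%, beside 21.8% of all genes), with 0 lower also at an unadjusted limma p under 0.05, and the list median was 0.06. Clcf1, whose product cardiotrophin-like cytokine acts through the CNTF receptor, LIFR and gp130, stood at 6.10, 6.16 and 6.27 in Cre-negative and at 8.06, 7.68 and 8.06 in Cre-positive replicates 1, 2 and 3. The groups were far apart, and its 3.38-fold rise (1.76 ± 0.12, limma adjusted p = 0.000126) held under all 17 settings. Ebi3, a subunit of interleukin 27, rose by 0.47 ± 0.12 (limma adjusted p = 0.0271). That call was lost without any one of Cre-negative replicates 1, 2 and 3 and Cre-positive replicates 2 and 3 (differences of 0.37 to 0.50, limma adjusted p of 0.0530 to 0.0907), with the sex factor (0.40, limma adjusted p = 0.234), without the 2 arrays with adrenal or muscle transcripts (0.42, limma adjusted p = 0.207) and with the mean of both its probe sets (0.20, limma adjusted p = 0.154). Ctf1 (cardiotrophin 1) was at 0.17 ± 0.08, Cntfr, the CNTF receptor, at 0.19 ± 0.17 and Il31ra at -0.04 ± 0.10, and these did not pass.

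Of the signal transducers, 2 of 11 rose and 0 fell (18.2%, with 1 lower at an unadjusted limma p under 0.05), and the list median was 0.13. Stat3 had a mean of 9.98 ± 0.02 (SD) in Cre-negative arrays and stood at 11.03, 11.11 and 11.08 in Cre-positive replicates 1, 2 and 3. Its groups were tight and well separated, with a difference of 1.10 ± 0.08, or 2.14-fold (limma adjusted p = 0.000127), under all 17 settings past the threshold. Tyk2, a JAK kinase, rose by 0.37 ± 0.09 (limma adjusted p = 0.0243). Its call was lost without Cre-negative replicate 1, 2 or 3 or Cre-positive replicate 2 (differences of 0.30 to 0.38, limma adjusted p of 0.0633 to 0.0843), with the sex factor (0.34, limma adjusted p = 0.198) and without the 2 arrays with adrenal or muscle transcripts (0.30, limma adjusted p = 0.197). Stat5b (-0.26 ± 0.08, limma adjusted p = 0.0503), Adam10, a protease that sheds receptors (0.22 ± 0.10), and the phosphatase gene Ptpn11 (0.17 ± 0.09) did not pass. Stat5b passed as lower in 5 of 17 settings, among them arrays centred on their medians (-0.32, limma adjusted p = 0.0213).

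The other inhibitors of the pathway were called about as often as all genes. Of 11 2 rose and 0 fell (18.2%, with 1 lower at an unadjusted limma p under 0.05), with a list median of 0.04. Socs2, which restrains growth hormone signalling, stood at 8.19, 9.05 and 9.04 in Cre-negative and at 9.73, 9.47 and 9.74 in Cre-positive replicates 1, 2 and 3, with Cre-negative replicate 1 apart from the others. It rose by 0.89 ± 0.23 (limma adjusted p = 0.0268). The call was lost without Cre-positive replicate 1, 2 or 3 (differences of 0.84 to 0.98, limma adjusted p of 0.0514 to 0.0716), with the sex factor (0.61, limma adjusted p = 0.291) and without the 2 arrays with adrenal or muscle transcripts (1.12, limma adjusted p = 0.0658). Without Cre-negative replicate 1 the difference was 0.60 (limma adjusted p = 0.0207). Pias3, a STAT3 inhibitor, rose by 0.41 ± 0.10 (limma adjusted p = 0.0228). Its call was lost without Cre-negative replicate 1 or 3 or Cre-positive replicate 1 or 2 (differences of 0.34 to 0.43, limma adjusted p of 0.0518 to 0.0877), with the sex factor (0.43, limma adjusted p = 0.136) and without the 2 arrays with adrenal or muscle transcripts (0.51, limma adjusted p = 0.0602). Socs5 (-0.21 ± 0.09), Pias1 (0.20 ± 0.09) and Socs6 (-0.10 ± 0.08) did not pass. Socs5 passed as lower in 1 of 17 settings, with quantile normalization repeated (-0.29, limma adjusted p = 0.0495).

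Genes known as targets of STAT3 and of C/EBP factors included Myc, Junb and Ccl2. Of 16 genes 10 rose and 0 fell (62.5%, beside 21.8% of all genes), with 1 lower at an unadjusted limma p under 0.05. That 1 was Ccnd1 (-0.65 ± 0.21, limma adjusted p = 0.0646). It passed as lower in 3 of 17 settings, among them arrays centred on their medians. Cebpb (0.58 ± 0.19, limma adjusted p = 0.0675), Bcl2l1 (0.28 ± 0.13), Birc5 (0.23 ± 0.11), Mcl1 (0.20 ± 0.14) and Batf (0.16 ± 0.08) did not pass. These 6 were named after their values were seen. The list median was 0.95, and 9 of the 10 calls held with sex as a second factor. Myc, a growth regulator, stood at 6.83, 7.21 and 7.05 in Cre-negative and at 9.01, 9.15 and 8.87 in Cre-positive replicates 1, 2 and 3, a 3.94-fold rise (1.98 ± 0.12, limma adjusted p = 8.66e-05). Junb (1.20 ± 0.08), Bcl3 (1.25 ± 0.15) and Fos (1.03 ± 0.19), which encode transcription regulators, the cytokine receptor gene Il4ra (0.88 ± 0.09), the adhesion molecule gene Icam1 (1.21 ± 0.10), the chemokine gene Ccl2 (3.16 ± 0.20) and the metalloproteinase inhibitor gene Timp1 (3.12 ± 0.42) also rose. Changes in Ccl2 and Timp1 were known when the list was chosen. Several of these genes have other known inducers, so the list is not specific to this pathway.

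The acute-phase list holds genes that IL-6 type cytokines induce in liver. Of 22 measured genes 14 rose and 1 fell (68.2% called, beside 21.8% of all genes). The 7 that did not pass were Saa2 (0.16), Crp (0.07), Apcs (-0.04), Hpx (-0.23), A2m (0.15), Hamp (0.15) and Orm3. All 7 were dim, below the median level of all genes. The list median was 1.03, and 9 of the 15 calls, 9 higher and 0 lower, held with sex as a second factor. Lbp, which encodes the lipopolysaccharide binding protein, stood at 7.90, 7.80 and 7.89 in Cre-negative and at 9.49, 9.43 and 10.29 in Cre-positive replicates 1, 2 and 3 (1.87 ± 0.21, limma adjusted p = 0.000904). Lrg1 rose by 1.70 ± 0.12, the ceruloplasmin gene Cp by 2.35 ± 0.16, the fibrinogen genes Fga by 2.55 ± 0.18 and Fgg by 3.79 ± 0.19, Lcn2 by 3.70 ± 0.12 and Serpina3n by 4.46 ± 0.36. Orm2 rose (1.96 ± 0.16), Orm1 fell (-1.04 ± 0.23) and Orm3 was at 0.24 and did not pass. The call of Orm1, the only lower one, was lost with the sex factor (limma adjusted p = 0.190). These are close paralogs whose probe sets were not compared here, so their values are uncertain. Orm1 and the 7 genes that did not pass were named after their values were seen. Rises in Lcn2, Fgg and Serpina3n were among the results known when the list was chosen.

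**Figure D3:**
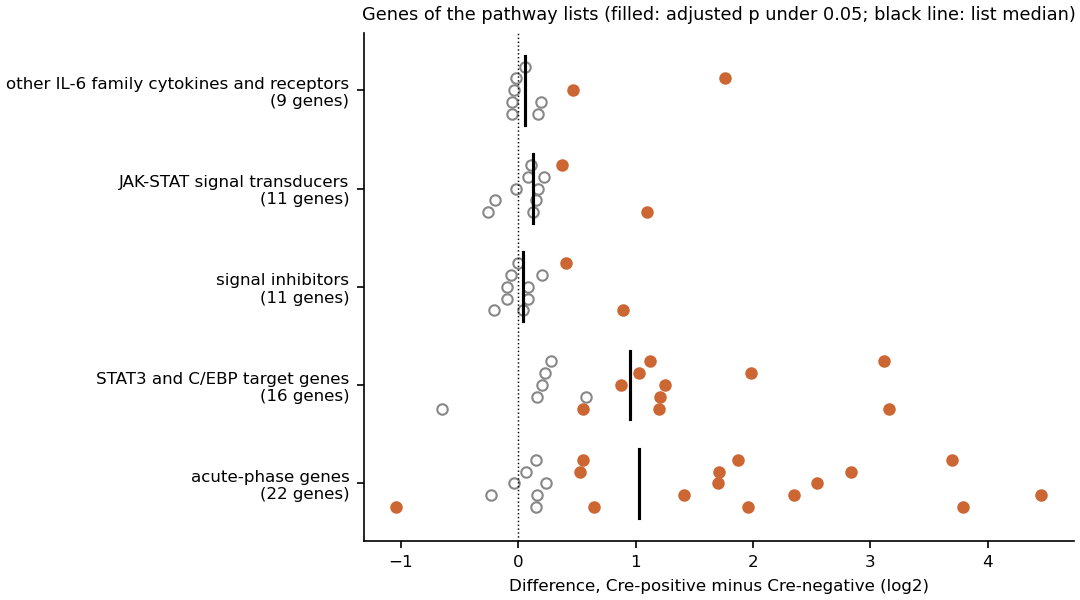
Log2 differences (Cre-positive minus Cre-negative) of each measured gene in the 5 pathway lists, filled where the limma adjusted p was under 0.05, with a black line at the list median. Medians are 0.06, 0.13 and 0.04 for family members, transducers and inhibitors, and 0.95 and 1.03 for target and acute-phase genes.

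In bulk kidney RNA, fewer cells of a type and less RNA per cell cannot be told apart. Markers of several cell types moved in the same arrays, where 10.7% of all genes were called as higher and 11.1% as lower. Of 10 myeloid markers 8 rose and 0 fell, with 0 lower also at an unadjusted limma p under 0.05. Csf1r (0.31 ± 0.25, limma adjusted p = 0.455) and Cx3cr1 (0.67 ± 0.23, limma adjusted p = 0.0742) did not pass. The summed level of the 10 (log2 of the sum) was 10.64 to 10.78 in Cre-negative and 11.59 to 12.62 in Cre-positive arrays. It was lowest in Cre-positive replicate 1 and highest in Cre-positive replicate 3. Such sums mostly follow the brightest probe sets, here Lyz2 and Csf1r, and probe sets do not share 1 scale. The same limit holds for the summed levels of the other cell types. Of the 8 myeloid calls 6 held with the sex factor. Of 8 fibroblast and pericyte markers 6 rose and 0 fell (0 lower at an unadjusted limma p), with a summed level of 12.55 to 12.61 against 13.07 to 13.91, and 1 of the 6 calls (Col1a1) held with sex as a second factor. Of 8 proximal tubule markers 8 fell (15.22 to 15.29 against 13.81 to 14.03), and of 7 endothelial markers 4 fell (12.68 to 12.74 against 11.96 to 12.40). With the sex factor 8 of the 8 tubule calls and 1 of the 4 endothelial calls (Kdr) held.

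Of 8 neutrophil markers 1, Csf3r, rose, and the summed level was 7.57 to 7.64 against 7.75 to 7.90. The defining neutrophil genes S100a8 (3.45 to 3.95) and S100a9 (4.13 to 4.41), named after their values were seen, did not exceed the upper end of the Y-linked range given above. No lymphocyte marker of 7 passed limma's test, where 2 were higher and 2 lower before adjustment (p under 0.05).

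The members did not all follow the order of these markers across the Cre-positive arrays. Within them the summed myeloid level spanned 1.03 and the fibroblast and pericyte level 0.84. The endothelial level spanned 0.44, the proximal tubule level 0.22 and the neutrophil level 0.15. Single myeloid markers spanned from 0.12 to 1.55. Among the members Osmr spanned 0.02, Osm 0.08, Il6st 0.20, Lifr 0.22, Il6ra 0.26, Il11 0.27, Socs3 0.33, Lif 0.34 and Il6 0.61. The proximal tubule level was lowest in Cre-positive replicate 1 (13.81) and highest in Cre-positive replicate 3 (14.03). Socs3 and Il6ra were highest in Cre-positive replicate 1, where the myeloid and fibroblast levels were lowest, whereas Lif, Il6st and Il6 were highest in Cre-positive replicate 3, where those levels were highest. The part of cell makeup in the differences of the members was not tested.

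**Figure D4:**
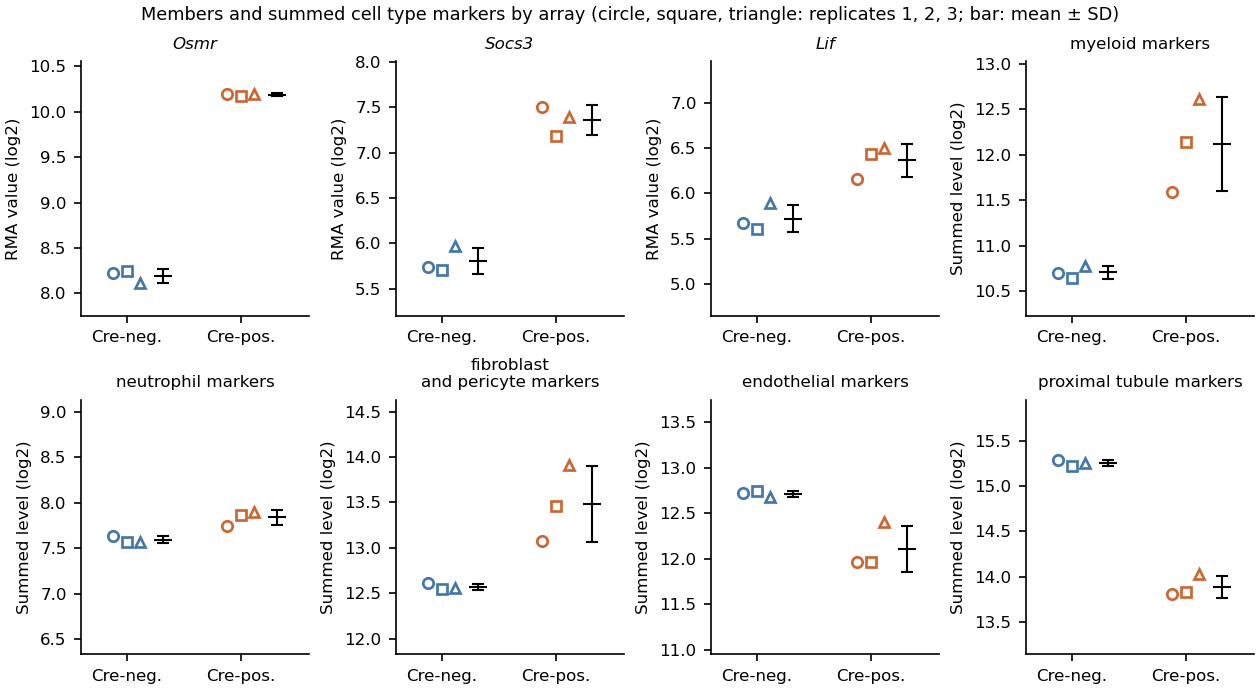
RMA values (log2) of Osmr, Socs3 and Lif and summed marker levels (log2) of 5 cell types in each array, with bars for the mean and SD and axes of equal length. The Cre-positive myeloid levels run from 11.59 to 12.62 and the proximal tubule levels from 13.81 to 14.03. The Cre-positive values of Osmr lie within 0.02 of each other.

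The named genes most like Osmr over the 6 arrays were Adamtsl1 (Pearson r = 0.9993), the galectin-3 gene Lgals3 (0.9993) and Litaf (0.9991), and 147 genes had an r above 0.99. For Socs3 they were Rassf2 (0.9993), the cation channel gene Trpm2 (0.9989) and Clcf1 (0.9970), the family cytokine described above, and 57 genes had an r above 0.99. All 6 points come from 2 groups, so these coefficients mostly describe the distance between the groups.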

How the data were processed

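Total RNA of 6 mouse kidney samples was labelled by an Affymetrix protocol, as the labels state. The authors' deposited log2 values cover 41345 probe sets. The submitters' processing notes list Partek and RMA; their versions and any genome build are not given here. RMA corrects background, quantile-normalizes and summarises probes. The log2 scale was read from the range of 1.89 to 13.59. Scan dates and slides were not used here.

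GEO's annotation gave 23521 rows 1 gene symbol, 1814 several and 16010 none; 23328 of the first kind matched RefSeq (GRCm38.p6) and 0 symbols changed. The row with the highest mean stood for each of 22180 genes. No filter was applied. Groups were compared over all genes with limma 3.58.1 in R 4.3.3 (lmFit, eBayes, two-sided, Benjamini-Hochberg, threshold 0.05). The test was checked on simulated data, where it called 28% of log2 changes of 0.5, 94% of 1 and 100% of 2. It also called 11 unchanged genes, and small changes were mostly missed. Members, lists and alternatives were chosen with earlier results of these data known. Named genes are the members, in each pathway list the 5 of smallest p and further called ones up to 8, in marker lists the 3 of highest level (named where a result turns on them), and for Socs3 and Osmr the 3 most correlated genes. Some genes lie outside this rule and were named after their values were seen. Among them are Col1a1, Kdr and the target and acute-phase genes that did not pass. Python 3.11.15 (pandas 2.3.3, matplotlib 3.10.9) made tables and figures.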

Additional observations from a re-analysis of the deposited data

How the results depend on the processing

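The direction of each of the 9 members held under every setting that tested it (17, or 16 for Il6, Lif, Osm and Il11, which are too dim for the filter), and the calls of Osmr, Il6ra and Socs3 held in each. The members called were 5, and 3 with male arrays alone or without the 2 arrays that carried adrenal or muscle transcripts. Leaving out 1 array at a time gave 4 to 5. Replicate numbers did not pair the arrays (correlations of same-numbered deviations 0.030, -0.042 and -0.015, and only replicate 1 correlated best with its own number). With the replicate number as a block, 4 members, 1 transducer and 1 inhibitor were called, and 3977 genes in all. The fit with a sex factor called 2030 genes, and 1101 were called with male arrays alone, where 1 Cre-negative array remains and its spread is taken from the other group. Without the 2 arrays 1853 were called, and 3141 without Cre-negative replicate 1. Median centring gave 1861 higher and 3134 lower genes, against 2372 and 2472.

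Other family genes called were 1 rather than 2 with median centring, without dim genes (those below the median level), with the mean of all rows, every row tested, the sex factor, male arrays alone and without the 2 arrays, and 1 to 2 leaving out each array. Transducers called were 3 (with Stat5b lower) with median centring, without dim genes, with trend and robust eBayes, with array weights and with the mean of all rows, and 1 rather than 2 with every row tested, the block, the sex factor, male arrays alone and without the 2 arrays, and 1 to 2 leaving out each array. Inhibitors called were 3 (with Socs5 lower) with quantile normalization repeated, and 1 with every row tested. They were 0 with the sex factor and without the 2 arrays (1 and 3 at an unadjusted limma p under 0.05). Leaving out each array gave 0 to 2 inhibitors (0 without Cre-positive replicate 1 or 2, where 2 and 3 had such a p). Acute-phase calls were 9 without dim genes (9 genes tested), 9 with the sex factor and 8 with male arrays alone, against 15, and 12 to 15 leaving out each array. Target gene calls ran from 7 to 11. These target gene counts include Ccnd1 as lower in 3 settings. Il31ra, not called, changed sign to 0.02 with the sex factor, male arrays alone and without Cre-negative replicate 1, and to 0.00 without Cre-positive replicate 3 (-0.10 to 0.02 leaving out each array). The cause of these changes was not tested, except that fewer genes or arrays enter some fits. Probe sets near background limit Il6.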
